A study of Mus musculus with 8 samples.

Results

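CC chemokines and their receptors were followed in whole skin of female FVB/N mice on 1-colour Agilent arrays. Members were the protein-coding genes whose symbol starts with Ccl or Ccr and a number, found through the RefSeq accession of each probe and represented by the brightest probe of the gene. Of 36 such symbols, 31 had a probe (20 ligands and 11 receptors), out of 21154 genes named on the array. The study compared 4 groups of 2 arrays each, 8 arrays in all: skin of *CD109-/-* mice 24 h after DMBA (a polycyclic aromatic hydrocarbon used as a tumour initiator), skin of *CD109+/+* mice 24 h after DMBA, untreated *CD109-/-* skin and untreated *CD109+/+* skin. Part of the labels call the untreated skin acetone-treated, acetone being the solvent of DMBA. The *CD109-/-* line lacks the gene in all cells and had been backcrossed onto FVB/N, and the wild-type FVB/N mice came from a commercial supplier. The age of the mice used for the arrays is not given in the sources used here. The labels number the replicates and do not say whether they came from separate mice, so p-values measure only the spread between these samples.

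CC chemokines are small secreted proteins that draw leukocytes along a gradient and act through G protein-coupled receptors, the Ccr family. In skin, one set is made in inflammation by macrophages, keratinocytes and fibroblasts (*Ccl2*, *Ccl3*, *Ccl4*, *Ccl7*) and is read by receptors of monocytes, macrophages and other myeloid cells (such as *Ccr1* and *Ccr2*). Another set acts in the resting tissue: *Ccl27a* from keratinocytes and *Ccl17* from dendritic cells are read by *Ccr10* and *Ccr4* on skin-homing T cells, and *Ccl19* with the Ccl21 proteins by *Ccr7* on cells leaving for the lymph node.

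*Cd109* signal ran against the label on 2 untreated arrays. Throughout, a log2 signal is the log2 of the array intensity over the 75th percentile of its array. *Cd109* was at −7.85 and −7.52 in DMBA-treated *CD109-/-* skin, against 1.09 and 1.67 in DMBA-treated *CD109+/+* skin. On the untreated arrays it was 1.89 and −7.90 on those labelled *CD109-/-* replicates 1 and 2, against 2.29 and −6.28 on those labelled *CD109+/+* replicates 1 and 2. Results are therefore given with the arrays as labelled and again after exchanging 2 arrays, untreated *CD109-/-* replicate 1 and untreated *CD109+/+* replicate 2 by their labels, called the exchanged arrangement here. This exchange was itself read from the measured *Cd109* values, and p-values under it cannot stand as separate evidence of a genotype effect. Whether the *Cd109* probe falls within the deleted part is not known here. The 4 low-*Cd109* arrays also carried more hair shaft keratin signal: the summed signal of 10 hair shaft keratin genes lay between 97.67 and 1595 times the 75th percentile on them and between 2.811 and 3.851 times on the 4 high-*Cd109* arrays. Skeletal muscle markers summed to between 113.1 and 270.2 on the low-*Cd109* arrays and between 474.1 and 631.4 on the high-*Cd109* arrays. Adipocyte markers summed to between 93.16 and 120.8 against 173.9 and 265.1, and macrophage and mast cell sums split the same way. *Cd109* level therefore cannot be told apart from the level of hair keratins or of these other markers in these data. DMBA-treated arrays filled one row of the slide and untreated arrays the other, so the row and the treatment cannot be told apart either. In the DMBA row, *CD109+/+* arrays were in columns 1 and 2 and *CD109-/-* arrays in columns 3 and 4. Genotype after DMBA and slide column therefore cannot be told apart. By their labels, the untreated arrays had the same order of columns. Between 63.6% and 67.0% of the spots of an array were well above background, none was saturated, and the number of arrays limits the precision.

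Of the 31 members, 28 exceeded background clearly on both arrays of 1 or more groups and were tested (17 ligands and 11 receptors). *Ccl8*, *Ccl6*, *Ccl27a*, *Ccl9* and *Ccl7* had the brightest ligand probes, with mean log2 signals over the 8 arrays of 6.61, 5.58, 4.16, 4.12 and 1.82. *Ccr2*, *Ccr6* and *Ccr7* had the brightest receptor probes, at 1.79, 0.56 and 0.28. A signal depends on the probe as well as on the transcript, so these values are not an order of transcript amounts. *Ccl20*, the ligand of *Ccr6*, and *Ccl26*, an eotaxin, were not well above background on any array. *Ccl1* has a single probe, whose spot was marked as an outlier on the array labelled untreated *CD109+/+* replicate 1, so it was not tested; its log2 signal on the other 7 arrays lay between −1.85 and 0.13. No probe was matched by accession to *Ccl21a*, *Ccl21b*, *Ccl21c*, *Ccl21d* or *Ccl27b*.

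**Figure D1:**
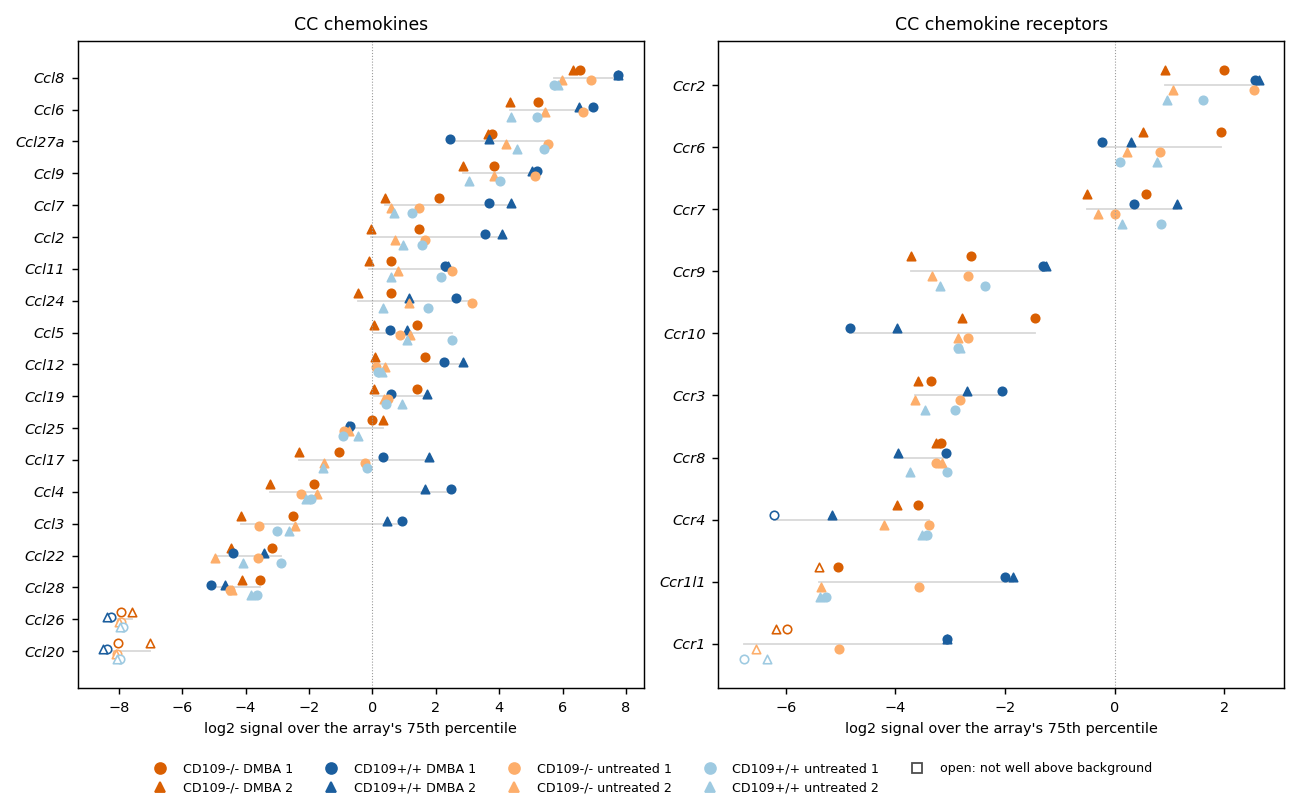
Log2 signal over the 75th percentile of the array (horizontal) of 19 CC chemokines (left) and 10 receptors (right) on each of the 8 arrays, with 1 point per array, groups as labelled and open symbols where the spot was not well above background. The 2 arrays of DMBA-treated *CD109+/+* skin (dark blue) lie to the right of the other 6 for *Ccl3*, *Ccl4*, *Ccr1* and *Ccr1l1* and to the left of them for *Ccr4* and *Ccr10*.

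The genes lie in clusters. In the RefSeq annotation (GRCm38.p6), with at most 3 other protein-coding genes between neighbours, *Ccl2*, *Ccl7*, *Ccl11*, *Ccl12* and *Ccl8* form a run of 5 on chromosome 11, *Ccl5*, *Ccl9*, *Ccl6*, *Ccl3* and *Ccl4* a second run of 5 on the same chromosome, and *Ccr9*, *Ccr1*, *Ccr1l1*, *Ccr3* and *Ccr2* lie in a run on chromosome 9. *Ccr4* and *Ccr8* lie elsewhere on chromosome 9, and *Ccl22* and *Ccl17* near each other on chromosome 8. Sequence upstream of the start was looked at because all members of the 3 runs had a lower mean signal in *CD109-/-* skin after DMBA and *Ccr4* a higher one. RefSeq promoter records matched 20 members by symbol (24 records, since 3 members have more than 1). The 200 bases before the start of 5 members with 1 record each are shown 5′ to 3′ on the strand of the gene, with capitals at every match on either strand to TATAA (the core of a TATA box), TGANTCA (the AP-1 motif) or a form of the NF-kB motif (GGG, any 2 bases, then TTTCC); matches to TATAA on opposite strands can overlap.
Ccl3, chr11:83649379-83649578, minus strand: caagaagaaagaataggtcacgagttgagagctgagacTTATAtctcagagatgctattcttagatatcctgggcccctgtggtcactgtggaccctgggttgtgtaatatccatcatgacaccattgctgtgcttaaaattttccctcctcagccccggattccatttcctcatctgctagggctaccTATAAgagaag
Ccl12, chr11:82101645-82101844, plus strand: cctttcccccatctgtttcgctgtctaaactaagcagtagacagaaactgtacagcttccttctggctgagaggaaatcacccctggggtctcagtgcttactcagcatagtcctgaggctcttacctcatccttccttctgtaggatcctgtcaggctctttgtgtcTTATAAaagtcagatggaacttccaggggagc
Ccl8, chr11:82114985-82115184, plus strand: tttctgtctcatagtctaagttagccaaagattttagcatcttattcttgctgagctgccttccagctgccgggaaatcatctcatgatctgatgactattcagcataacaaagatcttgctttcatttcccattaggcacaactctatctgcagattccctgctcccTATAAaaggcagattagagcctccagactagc
Ccr3, chr9:124021771-124021970, plus strand: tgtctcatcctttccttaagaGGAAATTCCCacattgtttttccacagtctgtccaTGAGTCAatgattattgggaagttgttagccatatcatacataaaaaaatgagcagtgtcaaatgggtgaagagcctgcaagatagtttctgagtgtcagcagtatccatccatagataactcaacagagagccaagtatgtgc
Ccr4, chr9:114496545-114496744, minus strand: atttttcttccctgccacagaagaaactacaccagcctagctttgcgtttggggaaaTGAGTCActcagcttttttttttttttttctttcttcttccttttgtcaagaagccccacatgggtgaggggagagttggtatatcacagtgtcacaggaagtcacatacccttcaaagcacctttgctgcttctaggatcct

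*Ccl3*, *Ccl12* and *Ccl8* carry TATAA within 40 bases of the start on the gene strand, as do *Ccl20* and *Ccl25*, 5 of the 20 members with a record against 4.24% of all 32841 mouse records. Over 250 bases and both strands, the NF-kB motif matched in *Ccl9*, *Ccl20* and *Ccr3* (3 members, against 1.41% of all records) and TGANTCA in *Ccl9*, *Ccl27a*, *Ccr3* and *Ccr4* (4 members, against 6.75%). TATAA matched anywhere in the 250 bases in 9 members and in 22.8% of all records. These matches describe the letters only.

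After DMBA, inflammatory CC chemokines and their receptors had lower signals on the *CD109-/-* arrays than on the *CD109+/+* arrays, and the skin-homing receptors *Ccr4* and *Ccr10* had higher ones. Both *CD109-/-* arrays lay below both *CD109+/+* arrays for 17 of the 28 members (32.8% of all probes tested did so) and above them for 5 (38.5% of all probes). None of the 4 arrays compared is among the 2 in doubt, so each fold change is the same in both arrangements while the standard error, the interval and the p depend on how the untreated arrays are grouped. With the arrays as labelled, 0 of 28 members passed an adjusted p of 0.05 in limma (34 of 36921 probes passed, 0.0921%), while 19 members had an unadjusted p under 0.05 (26.1% of all probes did). In the exchanged arrangement 14 members passed: 11 were lower (8.47% of all probes were) and 3 higher (11.6%) in *CD109-/-* skin. These calls did not hold when either *CD109+/+* array was left out and were fewer without *CD109-/-* replicate 2. The number of all probes passing fell in the same cases. Without *CD109-/-* replicate 1 both numbers rose, so a changed count is not by itself a result about the members. *CD109-/-* replicate 2 was the lowest of the 8 arrays for 17 of 28 members (23.1% of all probes tested).

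**Figure D2:**
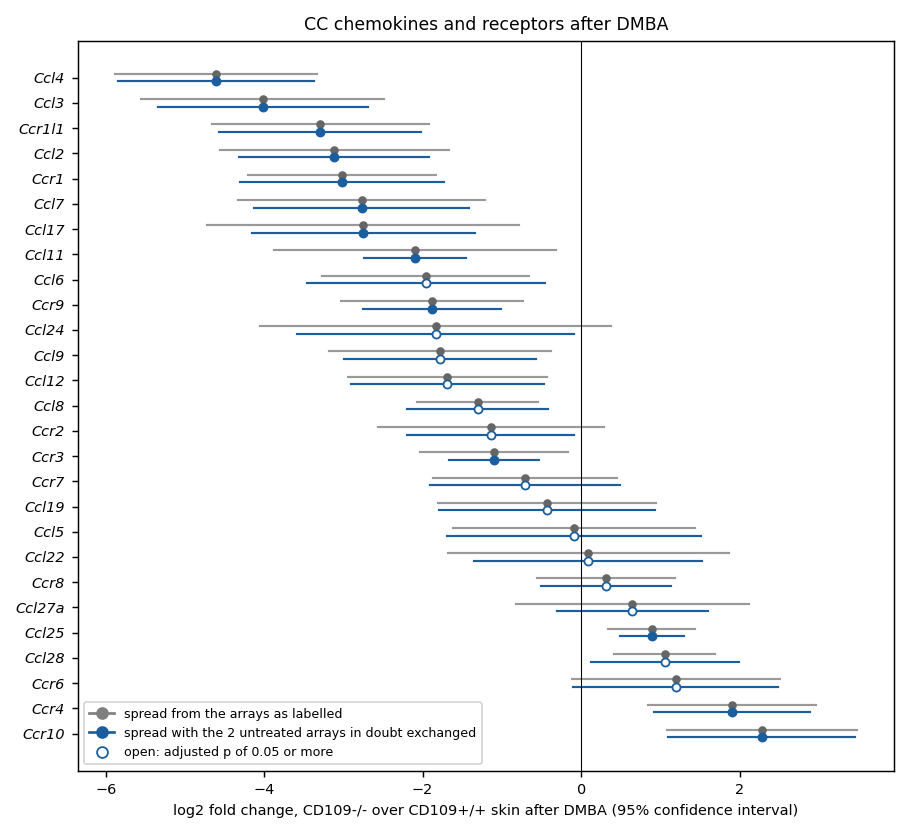
Log2 fold change of 27 members in *CD109-/-* over *CD109+/+* skin after DMBA with its 95% confidence interval, from limma with the spread of the arrays as labelled (grey) and with the 2 untreated arrays in doubt exchanged (blue, filled where the adjusted p was under 0.05). *Ccl4* and *Ccl3* lie farthest to the left, at −4.61 and −4.02, and *Ccr10* farthest to the right, at 2.28.

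*Ccl4* and *Ccl3*, macrophage inflammatory proteins of which *Ccl3* binds *Ccr1*, had the largest differences. *Ccl4* had log2 signals of −1.84 and −3.24 in DMBA-treated *CD109-/-* skin, against 2.48 and 1.66 in DMBA-treated *CD109+/+* skin. On the untreated arrays it was −2.26 and −1.74 where the label was *CD109-/-* and −1.95 and −2.10 where it was *CD109+/+*. Only the DMBA-treated *CD109+/+* arrays were thus above the 75th percentile, and the other 6 lay together whatever their *Cd109* signal. The difference after DMBA was 24.4-fold, with the lower signal in *CD109-/-* skin (log2 −4.61, SE 0.52, adjusted p = 0.0702 from limma as labelled, and SE 0.50, adjusted p = 0.0136 exchanged). *Ccl3* was likewise highest on both DMBA-treated *CD109+/+* arrays, at −2.50 and −4.15 in DMBA-treated *CD109-/-* skin, against 0.93 and 0.46 in DMBA-treated *CD109+/+* skin. Its untreated signals were −3.57 and −2.45 under the *CD109-/-* label and −3.01 and −2.63 under the *CD109+/+* label. The fold change of *Ccl3* was −4.02 on the log2 scale (SE 0.62, adjusted p = 0.0866 from limma as labelled, and SE 0.54, adjusted p = 0.0185 exchanged), a 16.2-fold lower signal in *CD109-/-* skin.

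The other genes of this chromosome 11 run did not follow *Ccl3* and *Ccl4* closely. *Ccl6*, a myeloid chemokine found in rodents, had log2 signals of 5.22 and 4.33 in DMBA-treated *CD109-/-* skin, against 6.96 and 6.51 in DMBA-treated *CD109+/+* skin. The array labelled untreated *CD109-/-* replicate 1 reached 6.63, inside the range of DMBA-treated *CD109+/+* skin, and the other 3 untreated arrays lay between 4.36 and 5.45. *Ccl9*, a ligand of *Ccr1*, was at 3.82 and 2.86 in DMBA-treated *CD109-/-* skin, against 5.20 and 5.03 in DMBA-treated *CD109+/+* skin, and also had a high untreated array, at 5.11 on the same array. Their log2 fold changes after DMBA were −1.96 (*Ccl6*, adjusted p = 0.118 from limma as labelled and 0.0679 exchanged) and −1.78 (*Ccl9*, 0.139 and 0.0538). *Ccl5*, which is made by T cells, overlapped between all groups, with 1.41 and 0.06 in DMBA-treated *CD109-/-* skin, against 0.56 and 1.08 in DMBA-treated *CD109+/+* skin (log2 fold change −0.09, 95% confidence interval −1.62 to 1.44 as labelled).

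The 4 monocyte-attracting ligands *Ccl2*, *Ccl7*, *Ccl8* and *Ccl12* all had a lower mean in *CD109-/-* skin after DMBA (median log2 fold change −2.23, against 0.07 over all probes tested), and *Ccl2* and *Ccl7* passed in the exchanged arrangement. *Ccl2*, the main monocyte attractant, had log2 signals of 1.46 and −0.05 in DMBA-treated *CD109-/-* skin, against 3.55 and 4.10 in DMBA-treated *CD109+/+* skin, while the 4 untreated arrays spanned 0.71 to 1.66. It was 8.67-fold lower in *CD109-/-* skin (log2 −3.12, SE 0.59, adjusted p = 0.1 from limma as labelled, and SE 0.49, adjusted p = 0.0226 exchanged). *Ccl7*, of the same run on chromosome 11, was also highest on both DMBA-treated *CD109+/+* arrays, with 2.11 and 0.41 in DMBA-treated *CD109-/-* skin, against 3.67 and 4.39 in DMBA-treated *CD109+/+* skin. Its 4 untreated arrays lay between 0.60 and 1.48, and its fold change was −2.77 on the log2 scale (adjusted p = 0.106 from limma as labelled and 0.0305 exchanged). *Ccl12* set *CD109-/-* replicate 1 apart from replicate 2 after DMBA, at 1.64 and 0.09, against 2.26 and 2.85 in *CD109+/+* skin, with all 4 untreated arrays between 0.11 and 0.39. *Ccl8*, which in mice acts mainly on *Ccr8*, was at 6.56 and 6.31 in DMBA-treated *CD109-/-* skin, against 7.74 on both arrays of DMBA-treated *CD109+/+* skin. *Ccl12* (log2 fold change −1.69) and *Ccl8* (−1.31) missed the threshold in both arrangements, with adjusted p of 0.13 and 0.108 from limma as labelled and 0.0604 and 0.054 exchanged.

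The inflammatory receptors *Ccr1*, *Ccr1l1*, *Ccr2* and *Ccr3* each had a lower mean in *CD109-/-* skin after DMBA, and all but *Ccr2* passed in the exchanged arrangement. *Ccr1* entered the test only through DMBA-treated *CD109+/+* skin, where it is high, so its passing adds nothing to that measured level. *Ccr1*, a receptor of monocytes and neutrophils in mice, was not well above background on either *CD109-/-* array after DMBA and at log2 signals of −3.07 and −3.06 in *CD109+/+* skin. Among the untreated arrays it was well above background on only the one labelled *CD109-/-* replicate 1, at −5.03. *Ccr1* was at least 5.58-fold lower in *CD109-/-* skin after DMBA, a bound set by the dimmest probe still well above background per array (adjusted p = 0.0884 from limma as labelled and 0.0257 exchanged). *Ccr1l1*, a *Ccr1*-like receptor gene of the same run, was at −5.05 and −5.39 in DMBA-treated *CD109-/-* skin, against −2.00 and −1.86 in DMBA-treated *CD109+/+* skin, while its untreated signal was −3.56 under the label *CD109-/-* replicate 1 and −5.37 to −5.26 under the other 3. The second of the *CD109-/-* arrays was not well above background, and the measured fold change was −3.29 on the log2 scale (adjusted p = 0.0918 from limma as labelled and 0.0226 exchanged); probe sequences are not among the data used here, so cross-hybridization between these 2 genes was not checked. *Ccr2* was at 2.00 and 0.93, against 2.57 and 2.63 in *CD109+/+* skin, with 2.54 on the array labelled untreated *CD109-/-* replicate 1 (log2 fold change −1.14, adjusted p = 0.261 as labelled and 0.101 exchanged). *Ccr3*, the eotaxin receptor of eosinophils, had the smallest fold change of the receptors that passed, −1.10 (adjusted p = 0.154 as labelled and 0.0327 exchanged).

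*Ccr4* and its ligand *Ccl17* lay on opposite sides after DMBA. *Ccr4* was at −3.60 and −3.97 in DMBA-treated *CD109-/-* skin, against −6.22, not well above background, and −5.16 in DMBA-treated *CD109+/+* skin, while the 4 untreated arrays spanned −4.22 to −3.39. *Ccr10* was at −1.44 and −2.79 in DMBA-treated *CD109-/-* skin, against −4.83 and −3.97 in DMBA-treated *CD109+/+* skin, while its 4 untreated arrays lay close together, between −2.87 and −2.67. For both receptors the DMBA-treated *CD109+/+* arrays were below the other 6. With 1 of its 2 *CD109+/+* arrays not well above background, *Ccr4* had a measured difference of 3.74-fold, higher (log2 1.90, SE 0.43, adjusted p = 0.105 from limma as labelled, and SE 0.40, 0.0327 exchanged) and *Ccr10* 4.86-fold higher (log2 2.28, SE 0.49, adjusted p = 0.104 as labelled, and SE 0.48, 0.0327 exchanged) in *CD109-/-* skin after DMBA. *Ccl17*, a ligand of *Ccr4*, went the other way, with −1.07 and −2.31 in DMBA-treated *CD109-/-* skin, against 0.33 and 1.79 in DMBA-treated *CD109+/+* skin (log2 fold change −2.75, with an adjusted p of 0.124 as labelled and 0.0321 exchanged). *Ccl22*, the other ligand of *Ccr4*, overlapped, at −3.17 and −4.45 against −4.39 and −3.41 in *CD109+/+* skin (log2 fold change 0.09, 95% confidence interval −1.68 to 1.86 as labelled).

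*Ccl27a*, the keratinocyte ligand of *Ccr10*, was at 3.76 and 3.65 in DMBA-treated *CD109-/-* skin, against 2.45 and 3.67 in DMBA-treated *CD109+/+* skin. Its untreated signals were 5.54 and 4.23 under the *CD109-/-* label and 5.41 and 4.57 under the *CD109+/+* label. All 4 DMBA arrays therefore lay below all 4 untreated arrays, the only member with that order in either direction (2.41% of all probes tested were below and 3.82% above). A second *Ccl27a* probe also had all 4 DMBA arrays below the untreated ones. The dimmest of its probes lay between −1.39 and −0.72 on all 8 arrays and did not have that order. It was at −1.06 under the label untreated *CD109-/-* replicate 2 and at −0.93 on DMBA-treated *CD109+/+* replicate 1. For DMBA in *CD109+/+* skin as labelled, the log2 fold change of this dimmest probe was −0.20. *Ccl28*, another ligand of *Ccr10*, was at −3.54 and −4.11 in DMBA-treated *CD109-/-* skin, against −5.11 and −4.65 in DMBA-treated *CD109+/+* skin (log2 fold change 1.06, with an adjusted p of 0.11 from limma as labelled and 0.0928 exchanged). *Ccl25* and its receptor *Ccr9*, a pair best known from thymus and gut, lay on opposite sides. *Ccl25* was at −0.01 and 0.32 in DMBA-treated *CD109-/-* skin, against −0.71 and −0.76 in DMBA-treated *CD109+/+* skin, a small but tight difference (log2 0.89, SE 0.22, adjusted p = 0.111 from limma as labelled, and SE 0.16, 0.0275 exchanged). *Ccr9* was at −2.61 and −3.71, against −1.31 and −1.25 in *CD109+/+* skin (log2 fold change −1.88, with an adjusted p of 0.111 as labelled and 0.0282 exchanged). *Ccl19*, its receptor *Ccr7*, *Ccr6* and *Ccr8* had log2 fold changes between −0.71 and 1.19 after DMBA, none of which passed in either arrangement; of these, *Ccr6* alone did not overlap between the 2 groups, at 1.94 and 0.52 against −0.22 and 0.30 in *CD109+/+* skin.

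Against untreated skin, the inflammatory chemokines *Ccl4* and *Ccl3* had log2 fold changes of 4.09 and 3.51 after DMBA in *CD109+/+* skin as labelled, and no member passed in *CD109-/-* skin. In *CD109+/+* skin 0 of 28 members passed as labelled (68 probes passed, 0.184%), and 16 had an unadjusted p under 0.05 (11.5% of all probes). In the exchanged arrangement 5 members passed, *Ccl3*, *Ccl4* and *Ccr1* as higher (2.37% of all probes) and *Ccl27a* and *Ccr4* as lower (1.14%). *Ccr1* was tested there only because both DMBA arrays were above background. The number passing changed without both arrays in doubt, or with 1 array left out of the exchanged arrangement, and so did the number of all probes passing. The exchanged calls did not hold without DMBA-treated *CD109+/+* replicate 1, or the arrays labelled untreated *CD109+/+* replicate 2 or untreated *CD109-/-* replicate 2. Fewer of all probes passed in these cases too. In *CD109-/-* skin 0 members passed in either arrangement (0.0135% of all probes passed exchanged and 0 as labelled), and 1, *Ccl25*, had an unadjusted p under 0.05 in each (14.3% of all probes as labelled, 17.5% exchanged).

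*Ccl4* was 17.1-fold higher after DMBA in *CD109+/+* skin as labelled (log2 4.09, SE 0.52, adjusted p = 0.0788 from limma) and 18.0-fold higher in the exchanged arrangement (adjusted p = 0.0207). In *CD109-/-* skin its fold change was −0.54 on the log2 scale (95% confidence interval −1.82 to 0.73 as labelled). *Ccl3* had log2 fold changes of 3.51 in *CD109+/+* skin as labelled (adjusted p = 0.158) and 3.98 exchanged (0.0264), and *Ccr1* was at least 6.21-fold higher as labelled (adjusted p = 0.0961). *Ccl27a* had a lower mean after DMBA in both genotypes, with log2 fold changes of −1.18 in *CD109-/-* and −1.93 in *CD109+/+* skin as labelled and of −0.69 and −2.42 exchanged, of which only the last passed (adjusted p = 0.0366 from limma). *Ccr4* had a measured fold change of −2.28 on the log2 scale in *CD109+/+* skin exchanged (adjusted p = 0.0452), with 1 of the 2 DMBA arrays not well above background, with a log2 fold change of 0.08 in *CD109-/-* skin (95% confidence interval −0.90 to 1.07). For 13 of 28 members the 2 arrays of DMBA-treated *CD109+/+* skin lay above the other 6 (13.3% of all probes tested) and for 3 below them (12.1%). The 13 included *Ccl2*, *Ccl3*, *Ccl4*, *Ccl7*, *Ccl8*, *Ccl12*, *Ccl17*, *Ccr1*, *Ccr1l1*, *Ccr2*, *Ccr3* and *Ccr9*, and the 3 were *Ccl28*, *Ccr4* and *Ccr10*.

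**Figure D3:**
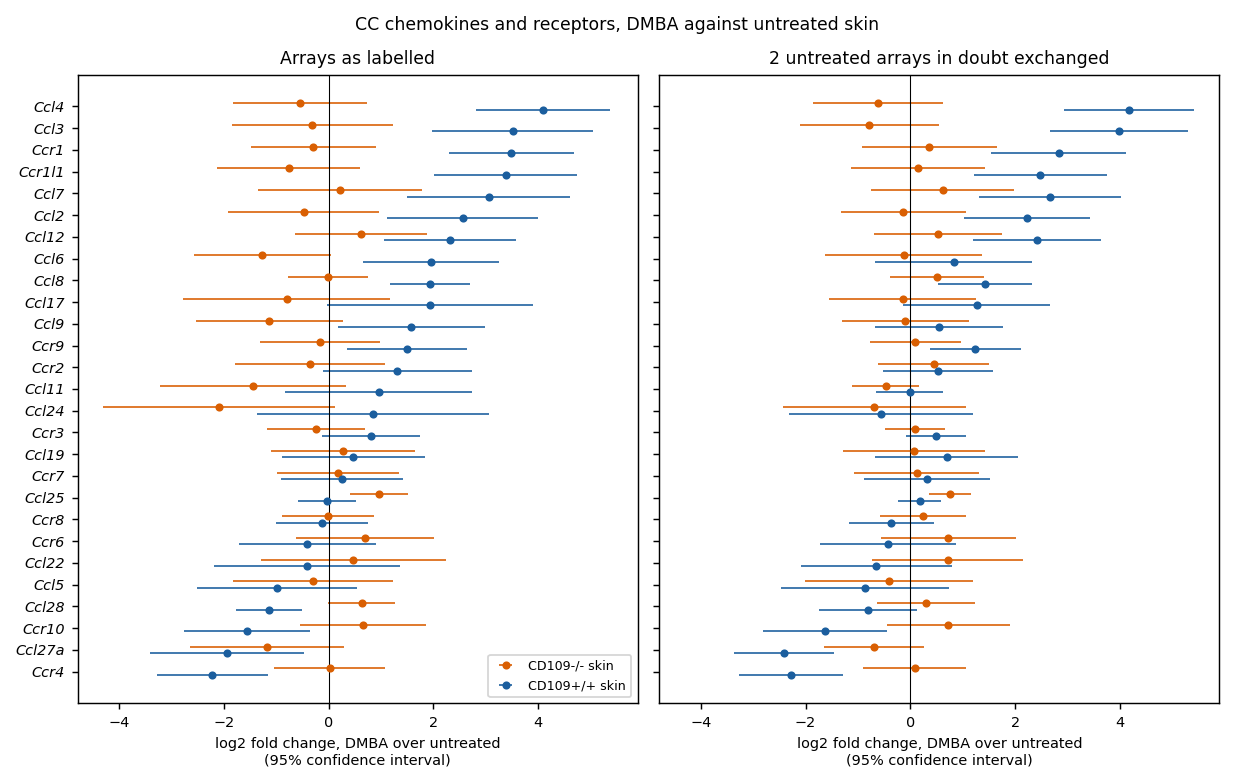
Log2 fold change of 27 members after DMBA over untreated skin, in *CD109-/-* (orange) and *CD109+/+* skin (blue), with 95% confidence intervals from limma, for the arrays as labelled (left) and with the 2 untreated arrays in doubt exchanged (right). In *CD109+/+* skin *Ccl4* and *Ccl3* lie at 4.09 and 3.51 on the left, beside *Ccr1*, whose untreated *CD109+/+* arrays were not well above background.

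The DMBA effect was also tested for a difference between the genotypes. The difference did not pass for any member, as labelled (0 of 36921 probes passed) or exchanged (10 of 37147 probes, 0.0269%), and 15 of 28 members had an unadjusted p under 0.05 as labelled (15.4% of all probes). Its largest value was that of *Ccl4*, with a log2 difference of −4.64 in the DMBA effect (adjusted p = 0.236 from limma as labelled) and −4.80 exchanged (adjusted p = 0.0759). Averaged over the genotypes, the DMBA effect passed for 0 members in both arrangements (0.0298% of all probes as labelled, 1.5% exchanged), with 11 at an unadjusted p under 0.05 as labelled (11.5% of all probes). A different response of the genotypes was therefore not shown at this number of arrays.

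In untreated skin, no member passed between the groups as labelled, and *Ccl11*, like other members and many probes, lay by the *Cd109* signal. As labelled, 0 of 28 members passed (2 probes did, 0.00542%) and 1, *Ccl28*, had an unadjusted p under 0.05 (2.15% of all probes). *Ccl11*, eotaxin, was at 2.52 and 0.82 on the arrays labelled *CD109-/-* and at 2.17 and 0.58 on those labelled *CD109+/+*. In each pair the array with the high *Cd109* signal was the higher one. Both low-*Cd109* untreated arrays lay below both high-*Cd109* ones for 14 of 28 members (34.6% of all probes) and above them for 3 (30%). In the exchanged arrangement *Ccl11* was 3.13-fold lower in untreated *CD109-/-* skin (log2 −1.64, SE 0.26, adjusted p = 0.023 from limma), the 1 member that passed (3.95% of all probes were lower). The call of *Ccl11* did not hold without either DMBA-treated *CD109+/+* array or without any 1 of the untreated arrays. Fewer of all probes passed in these cases too. The call held without either DMBA-treated *CD109-/-* array, where more of all probes passed. The fold change of *Ccl11* as labelled had the other sign, at 0.29 (95% confidence interval −1.49 to 2.07). After DMBA, *Ccl11* was at 0.57 and −0.12 in *CD109-/-* skin, against 2.28 and 2.38 in *CD109+/+* skin (log2 fold change −2.10, with an adjusted p of 0.154 as labelled and 0.0169 exchanged). It followed the *Cd109* signal on all 8 arrays and had a log2 fold change of −0.02 for DMBA in *CD109+/+* skin exchanged. *Ccl24*, a second eotaxin, was at 0.57 and −0.47 in DMBA-treated *CD109-/-* skin, against 2.63 and 1.15 in *CD109+/+* skin, and highest on the array labelled untreated *CD109-/-* replicate 1, at 3.13.

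Averaged over treatments, 16 members passed in the exchanged arrangement, 15 lower (15.8% of all probes) and *Ccl25* higher (15%) in *CD109-/-* skin. The number passing changed when 1 array was left out. It was smallest without DMBA-treated *CD109+/+* replicate 1, as was the number of all probes passing. As labelled, 0 members passed (0.00271% of all probes), with 10 at an unadjusted p under 0.05 (12.3%). *Ccl11* had the smallest adjusted p (log2 −1.87, SE 0.18, adjusted p = 0.00484 from limma), and *Ccl4* passed too (−2.21, 0.0132). For 6 of 28 members, *Ccl11*, *Ccl17*, *Ccl2*, *Ccl9* and *Ccr3* included, signals were lower on all 4 low-*Cd109* arrays than on all 4 high-*Cd109* arrays (14.1% of all probes were), and for none were they higher (13.2%). *Ccl24*, *Ccl6* and *Ccr2* passed with log2 fold changes of −1.77, −1.48 and −1.10. *Ccl3* and *Ccl4* were not in this group of 6: their means on the untreated arrays were 0.75 and 0.18 higher, on the log2 scale, with a low than with a high *Cd109* signal. Some members thus set DMBA-treated *CD109+/+* skin apart, and some lay by the *Cd109* signal in both treatments. The 2 sets overlapped, since *Ccl2*, *Ccl17* and *Ccr3* were in both. The second set, 6 of 28, is to be read beside the 14.1% of all probes with that order. Its order by *Cd109* signal cannot be told apart from one by the level of hair keratins or of muscle, adipocyte, macrophage or mast cell markers.

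**Figure D4:**
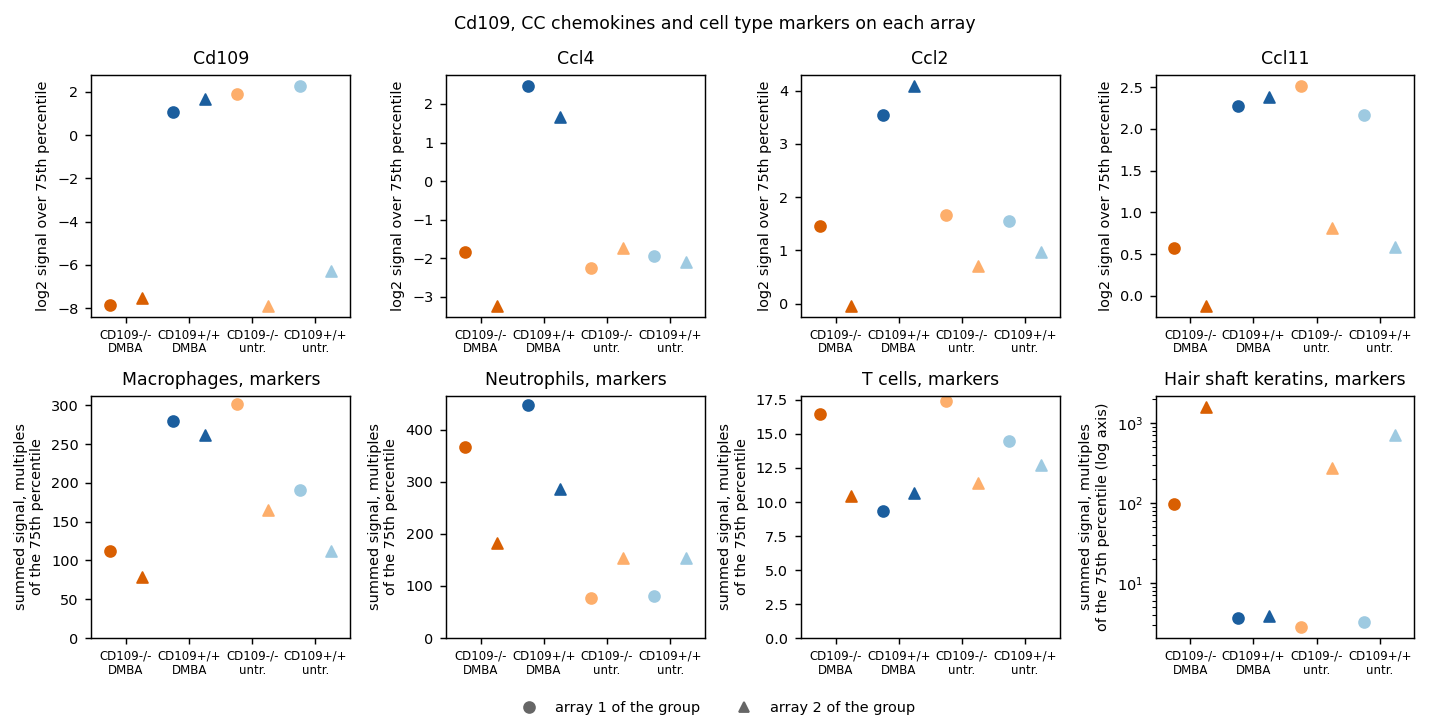
Values of each array, groups as labelled: above, log2 signal of *Cd109*, *Ccl4*, *Ccl2* and *Ccl11*; below, summed signal of marker genes of macrophages (10), neutrophils (8), T cells (6) and of hair shaft keratins (10, log axis) in multiples of the 75th percentile. *Ccl4* is high on the 2 DMBA-treated *CD109+/+* arrays alone, *Ccl11* and the macrophage sum also on arrays of untreated skin, and the hair keratin sum is at 97.67 or more on the 4 low-*Cd109* arrays.

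Macrophage markers moved with many of these results. In whole skin, fewer cells of a type and less RNA per cell cannot be told apart. The summed signal of 10 macrophage genes (all measured, all tested) was 112.1 and 79.2 in DMBA-treated *CD109-/-* skin, against 279.5 and 261.5 in DMBA-treated *CD109+/+* skin, and 301.2 and 164.9 on the untreated arrays labelled *CD109-/-*, against 190.5 and 112.1 on those labelled *CD109+/+*. Of the 10, 9 had a lower mean in *CD109-/-* skin after DMBA. In the exchanged arrangement 6 passed as lower (8.47% of all probes did), and 0 passed as labelled. The part of this marker level in the results on any member, *Ccl3* and *Ccl4* included, was not tested. The array with the highest macrophage sum, labelled untreated *CD109-/-* replicate 1, is a single array with its label in doubt. *Ccl3* and *Ccl4* had log2 signals of −3.57 and −2.26 on it. *Ccr1* and *Ccr1l1* were at −5.03 and −3.56 on that array, between the DMBA-treated *CD109+/+* arrays and the rest.

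The summed neutrophil signal, most of it from *S100a8*, *S100a9* and *Csf3r*, was 367.4 and 182.9 in DMBA-treated *CD109-/-* and 446.5 and 286.0 in DMBA-treated *CD109+/+* skin, against 77.18 to 154.3 on the untreated arrays. Single markers differed from the sum and from each other. *Mmp9* had log2 signals of −3.54 and −5.26 in DMBA-treated *CD109-/-* skin, below the −3.37 to −1.56 of the untreated arrays. *Mmp8* (−3.45 and −3.82, against −5.78 to −4.85), *Cxcr2* (−2.12 and −2.47, against −3.94 to −2.77) and *Csf3r* lay above the untreated arrays there, and *S100a8*, *S100a9* and *Fpr1* overlapped them. *Mmp8*, *Cxcr2* and *Fpr1* were highest on both DMBA-treated *CD109+/+* arrays, and the other tested neutrophil genes were not. Of 7 tested neutrophil genes, 2 passed as higher after DMBA in *CD109+/+* skin as labelled (0.146% of all probes) and 4 exchanged (2.37%). Exchanged, 4 passed as lower in DMBA-treated *CD109-/-* skin against *CD109+/+* skin (8.47% of all probes). Markers of T cells, the cells known for *Ccr4* and *Ccr10*, summed to 16.44 and 10.41 in DMBA-treated *CD109-/-* skin, against 9.326 and 10.69 in DMBA-treated *CD109+/+* skin, with 0 of 5 tested genes passing in either arrangement. Their log2 fold changes were 1.15 for *Cd3d*, 0.81 for *Cd3e*, 0.95 for *Cd3g*, 0.30 for *Lck* and −0.31 for *Cd4*. Both *CD109-/-* arrays lay above both *CD109+/+* arrays for *Cd3d* and *Cd3e* (38.5% of all probes tested did so). For *Cd4* they lay below (32.8%), and *Cd3g* and *Lck* overlapped. Langerhans and dendritic cell markers summed to 184.2 and 79.12, against 111.3 and 165.7. The defining eosinophil genes *Epx* and *Prg2* were not well above background on any array, while *Siglecf*, *Ear1* and the eotaxin receptor *Ccr3* were above it on all 8. Between the genotypes after DMBA, the log2 fold change of *Siglecf* was −2.21 (limma, adjusted p = 0.104 as labelled and 0.0159 exchanged) and that of *Ear1* 0.27 (0.756 and 0.677). Skeletal muscle markers summed to 215.4 and 113.1 in DMBA-treated *CD109-/-* skin, against 513.6 and 474.1 in *CD109+/+* skin. Adipocyte markers summed to 103.1 and 93.16 against 214.1 and 173.9, and mast cell markers to 29.8 and 19.28 against 45.91 and 41.75. Lymphatic endothelium markers summed to 10.3 and 8.284 against 29.97 and 27.3, and keratinocyte markers to 595.9 and 429.3 against 639.4 and 756.8. None of these sums overlapped between the groups, and 32.8% of all single probes tested had this order. The part of these marker levels in the chemokine results was not tested.

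Other genes of the pathway followed the members in part. The 5 atypical and related receptors (*Ackr1* to *Ackr4*, which take up chemokines without G protein signalling, and *Ccrl2*) all had a lower mean in *CD109-/-* skin after DMBA, with a median log2 fold change of −1.07. Of these, 0 passed as labelled and *Ackr1*, *Ackr2* and *Ccrl2* exchanged. Among 9 tested genes of other chemokine families, *Cxcl10*, its receptor *Cxcr3* and *Cxcl12* passed as lower and *Xcr1*, a dendritic cell receptor, as higher in the exchanged arrangement, against 0 as labelled (median −0.60). Of 14 genes that act downstream of or on these receptors, 12 had a lower mean in *CD109-/-* skin (median −0.84). *Pik3cg* and *Pik3r5*, which encode subunits of the leukocyte PI3-kinase gamma, and *Dpp4*, a protease that trims chemokines, passed exchanged. The 7 genes of NF-kB subunits and regulators, the inhibitor *Nfkbia* among them, had a median of −0.12, against 0.07 over all probes. Of these 7, 0 passed in either arrangement, and the activity of the proteins was not measured. Over all probes, 8.47% passed as lower and 11.6% as higher in this comparison in the exchanged arrangement.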

How the data were processed

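Total RNA of whole skin was labelled with Cy3 and hybridised to 1-colour arrays by the authors, 2 arrays per group on 1 slide. The deposited scanner intensity values came from Agilent Feature Extraction 11.5.1.1, background-subtracted and detrended on a linear scale, with no normalization between arrays. A deposited value table holds the same intensity times 1 constant per array and served as an alternative. Here log2 values were computed from the deposited intensity and each array's 75th percentile of it was subtracted; that percentile lay between 337 and 527 intensity units. Of 55681 probes, 223 with an outlier spot were left out. RefSeq accessions named 28026 of 29796 RefSeq probes (94.1%). Probes that were flagged above background for the 2 arrays of any 1 group were tested with limma 3.58.1 in R 4.3.3, with 1 mean per group over all 8 arrays and Benjamini-Hochberg adjustment over all tested probes (36921 as labelled, 37147 with the exchange). An adjusted p under 0.05 counted as passed. The scripts were tested on simulated data.

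The members, lists and the rule for named genes were chosen with earlier results of these data known. That rule took, per comparison, every member that passed in either arrangement or else the 4 with the smallest p, the 5 brightest ligands and 4 brightest receptors, members with both DMBA-treated *CD109+/+* arrays outside the other 6, and members never above background; the other members named were chosen after their values were seen. Replicate numbers were not taken as pairs, and whether they mark pairs is not known from the labels. Alternatives changed the background correction, scaling, filter, model, probe summary and arrays used. Values of 1 receptor gene are not reported here; counts over members include it.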

Additional observations from a re-analysis of the deposited data

Results flagged for a closer look

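For 4 members, every array pair moved one way after DMBA in one genotype and the other way in the other, with the arrays as labelled. The DMBA effect in *CD109-/-* minus that in *CD109+/+* skin was −3.22 for *Ccl6* on the log2 scale (effects of −1.26 and 1.96, adjusted p = 0.28 from limma), −2.71 for *Ccl9* (−1.13 and 1.58, 0.287), −2.40 for *Ccl11* (−1.44 and 0.95, 0.334) and 1.77 for *Ccl28* (0.63 and −1.14, 0.268). In the exchanged arrangement *Ccr10* was the only such member, with a difference of 2.35 (effects of 0.73 and −1.63, adjusted p = 0.155). None of these differences passed the test of the difference itself.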

How the results depend on the processing

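As labelled, 0 members passed in each of the 7 comparisons, and the number passing depended on the treatment of the 2 arrays in doubt. The number of all probes passing also changed from one alternative to the next, so a changed count is not by itself a result about the members. With them exchanged it was 14 for *CD109-/-* against *CD109+/+* after DMBA, 1 untreated, 5 for DMBA in *CD109+/+* skin and 16 averaged over treatments. Without both, it was 2 for DMBA in *CD109+/+* skin. Normexp gave 2 in that comparison (112 of 36921 probes passed) and 2 between genotypes after DMBA (73 probes), and median centring 1 in the second (90 probes). A replicate block gave 9 between genotypes after DMBA, all lower (1596 of 36921 probes passed in either direction), and 0 in the other 6 comparisons. Deviations of same-numbered arrays correlated between −0.082 and 0.731, highest between the 2 untreated groups. The labels do not say whether the numbers mark pairs, and they were not taken as pairs. The methods' t-test gave 0 after adjustment throughout. Leaving out each array in turn gave 0 to 2 for DMBA in *CD109+/+* skin (2 without either array labelled untreated *CD109-/-*), 0 to 2 for the difference in DMBA effect (2 without untreated *CD109-/-* replicate 2) and 0 to 0 for the others. In the exchanged arrangement the ranges were 0 to 16 between genotypes after DMBA (7 or 8 without an untreated array), 0 to 2 untreated, 0 to 6 for DMBA in *CD109+/+* skin (3 without untreated *CD109-/-* replicate 1), 0 to 2 for the difference, 0 to 5 averaged over genotypes (3 without untreated *CD109-/-* replicate 1) and 4 to 17 averaged over treatments (4 and 5 without *CD109+/+* DMBA replicates 1 and 2, 12 without *CD109-/-* DMBA replicate 2, 11 without untreated *CD109+/+* replicate 1).

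Of 1188 values of named members, 16 reversed, and the cause was not tested. *Ccl11* in untreated skin (0.29 on the log2 scale) was −1.64 exchanged (−1.82, −1.76, −1.53 and −1.47 leaving out an untreated array), −1.35 without both arrays in doubt, −0.50 without *CD109+/+* replicate 2 and −0.56 without *CD109-/-* replicate 1, in a range up to 1.14 (without *CD109-/-* replicate 2). *Ccl6* for DMBA in *CD109-/-* skin (−1.26) was 0.31 exchanged without DMBA-treated *CD109-/-* replicate 2 and 0.41 without untreated *CD109-/-* replicate 2. Averaged over treatments and without untreated *CD109-/-* replicate 2, *Ccl24* was 0.12 (−0.37) and *Ccr2* 0.058 (−0.31), the lowest values on leaving out an array being −0.87 and −0.68.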

Other observations

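The probe of *Gm13304*, which RefSeq gives the synonym *Ccl21b* and which is no member by its symbol, lay between 5.28 and 6.87 on the log2 scale over the 8 arrays, well above background on each. The second probe of *Ccr8* lay between −8.10 and −2.03, against −3.96 to −3.06 for the brighter one, so the level of *Ccr8* depends on the probe. DMBA-treated *CD109+/+* replicate 2 was the highest of the 8 arrays for 12 of 28 members (9.01% of all probes tested).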
